A study of Mus musculus with 40 samples.

Results

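Pnliprp1, Pnliprp2, Bpifb5 and Ptn are 4 of the 45706 genes in the expression tables of a mouse colon tumor series, and they were followed here through all 40 libraries. They were chosen by measured values of these same libraries: the excess of each gene in tumor over healthy epithelial cells, and its appearance beside those cells in the stromal fraction of the tumors. Their levels in colon epithelial and stromal cells are therefore given as a description without a test. Tests are kept for neutrophils and monocytes, whose values were not used in the choice. Tumor libraries of both also held markers of epithelial cells, so an excess over blood is not independent of the choice. The libraries form 10 groups of 4. Epithelial and stromal cells came from colon tumors and from healthy colon, neutrophils and monocytes came from colon tumors and from the blood of tumor-bearing mice, and blood neutrophils and monocytes came also from healthy mice.

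The tumor-bearing mice carried the Cdx2CreERT2 – Apc fl/fl transgene combination and received, by the labels, a single 25 mg/kg intraperitoneal dose of Tamoxifen at 8 to 10 weeks of age. In this combination the Cdx2 promoter drives a Tamoxifen-dependent Cre recombinase in the caudal intestine, so that both Apc alleles are deleted in colon epithelium. The healthy mice are labelled C57Bl6, with no transgene and no agent, while the tumor-bearing mice are labelled C57Bl6/Sv129 with a final number that counts up over the samples. Strain, transgene, Tamoxifen and tumor therefore cannot be told apart in any comparison of tumor with healthy tissue. Cells were sorted by surface proteins: EpCAM+ CD45- for epithelial cells, EpCAM- CD45- for stromal cells, and CD45+ CD11b+ MHCII- with Ly6G or Ly6C for neutrophils or monocytes. The ages of the mice at collection are not given per library in the sources used here. Several titles of tumor libraries share an animal number across cell types, so these populations came in part from the same mice. By their titles, tumor and blood neutrophils share 1 animal number and tumor and blood monocytes share 1, that of replicate 1 in both, and the tests treat these libraries as independent.

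The adenomatous polyposis coli protein Apc is a scaffold of the complex that marks beta-catenin for destruction, and without it beta-catenin enters the nucleus and acts with TCF and LEF factors on the promoters of Wnt target genes. Pnliprp1 and Pnliprp2 encode the pancreatic lipase-related proteins, secreted relatives of the pancreatic triglyceride lipase Pnlip that are best known as products of the acinar cells of the exocrine pancreas. Pnliprp2 splits several kinds of dietary lipid, while little lipase activity is known for Pnliprp1. Bpifb5 belongs to the BPI fold family of secreted lipid-binding proteins, many of which are made by mucosal epithelia. Ptn encodes pleiotrophin, a secreted heparin-binding growth factor related to midkine (Mdk), which is known from developing nerve, bone and connective tissue and binds the receptor phosphatase Ptprz1 and syndecans.

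In the GRCm38 assembly, which is the mm10 build of the expression tables, Pnliprp1 (ENSMUSG00000042179) lies at chr19:58728887-58744169 and Pnliprp2 (ENSMUSG00000025091) at chr19:58759719-58777534, both on the plus strand and 15550 bases apart. Bpifb5 (ENSMUSG00000038572) lies at chr2:154223742-154240902 on the plus strand and Ptn (ENSMUSG00000029838) at chr6:36714929-36810220 on the minus strand. No annotated gene overlapped any of them. Of the 31-base words in their annotated transcripts, those of Pnliprp1, Pnliprp2 and Bpifb5 were found in no other gene, and 1.38% of those of Ptn were. The neighbours Pnliprp1 and Pnliprp2 shared none, so reads of this length could be assigned between them.

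The 250 bases before the RefSeq transcription start of each gene are shown because the genes had high levels in the same tumor populations and Wnt target genes carry short TCF/LEF letters in their promoters. They lie on GRCm38.p6 at chr19:58728637-58728886 and chr19:58759473-58759722 on the plus strand, chr2:154223492-154223741 on the plus strand and chr6:36810180-36810429 on the minus strand. Capitals mark a match to the TCF/LEF letters CTTTGAT or CTTTGAA, the TATA box letters TATAAA or the CDX letters TTTATNG, searched on both strands.
Pnliprp1: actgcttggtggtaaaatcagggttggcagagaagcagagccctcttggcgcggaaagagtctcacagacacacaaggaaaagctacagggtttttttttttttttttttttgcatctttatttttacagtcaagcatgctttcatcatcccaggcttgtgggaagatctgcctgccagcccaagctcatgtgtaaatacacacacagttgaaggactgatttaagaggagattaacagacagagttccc
Pnliprp2: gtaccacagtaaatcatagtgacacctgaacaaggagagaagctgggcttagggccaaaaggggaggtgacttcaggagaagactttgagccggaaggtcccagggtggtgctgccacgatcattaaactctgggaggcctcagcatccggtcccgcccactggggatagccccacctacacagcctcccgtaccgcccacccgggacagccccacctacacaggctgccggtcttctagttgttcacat
Bpifb5: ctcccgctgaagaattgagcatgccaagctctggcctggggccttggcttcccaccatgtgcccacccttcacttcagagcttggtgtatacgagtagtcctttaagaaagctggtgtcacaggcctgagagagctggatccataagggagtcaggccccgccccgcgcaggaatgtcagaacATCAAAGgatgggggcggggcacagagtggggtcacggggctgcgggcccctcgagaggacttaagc
Ptn: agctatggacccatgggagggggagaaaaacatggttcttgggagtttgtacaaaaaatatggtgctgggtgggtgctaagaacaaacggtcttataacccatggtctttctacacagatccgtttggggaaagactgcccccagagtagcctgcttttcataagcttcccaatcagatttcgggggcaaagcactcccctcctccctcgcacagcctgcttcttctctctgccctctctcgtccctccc

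Bpifb5 held the only match, ATCAAAG, the reverse complement of CTTTGAT, from 67 to 61 bases before its start. CTTTGAT occurred in 3.21% of the 32851 RefSeq promoters of this length, CTTTGAA in 4.46%, TATAAA in 12.4% and TTTATNG in 9.81%. The match is a description of the letters and was tied to no measurement of binding. The GC content of the 4 stretches was 43.6% for Pnliprp1, 58.4% for Pnliprp2, 60% for Bpifb5 and 52.0% for Ptn, beside a median of 52.4% over all promoters.

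Gene-level counts summed to between 10717873 and 38002939 per library, of which genes of the mitochondrial genome took 5.34% to 83.9%, the highest share in healthy epithelial replicate 4. Several libraries stood apart from their labels. Epithelial markers, given as the sum of 17 genes in RPKM (reads per kilobase of gene, scaled to the depth of the library), reached 312 and 177 RPKM in tumor stromal replicates 1 and 2 but 69.3 and 39.1 RPKM in replicates 3 and 4, beside 201 to 503 RPKM in tumor epithelial cells. The sum of 10 fibroblast markers was 6.35 to 25.9 RPKM in tumor stromal cells and 409 to 2112 RPKM in healthy stromal cells. Endothelial markers reached 147 and 157 RPKM and neutrophil markers 1407 and 502 RPKM in tumor stromal replicates 3 and 4. Tumor neutrophil replicate 1 held 214 RPKM of epithelial markers beside 15.7 to 50.8 RPKM in the other replicates, and tumor monocytes held 2.17 to 43.5 RPKM. The deleted gene Apc was read at 6.20 ± 0.253 RPKM in tumor and 2.08 ± 1.27 RPKM in healthy epithelial cells (SD, n = 4). A gene-level value does not check the deletion of part of a gene, and no fitted difference is given for Apc. RPKM is scaled to depth, and mitochondrial genes took 83.9% of counts in healthy epithelial replicate 4, so these means do not measure a change.

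All 4 genes were among the most abundant nuclear transcripts of tumor epithelial cells. Pnliprp1 ranked 31, Pnliprp2 48, Bpifb5 67 and Ptn 108 by mean RPKM among 45669 nuclear genes, against ranks of 9686, 11064, 8186 and 17127 in healthy epithelial cells. Pnliprp1 was read at 116, 117, 74.0 and 55.9 RPKM in tumor epithelial replicates 1 to 4 and at 1.75, 0.0565, 0.0251 and 0.0203 RPKM in healthy epithelial replicates 1 to 4. The lowest tumor library was far above the highest healthy one, and healthy replicate 1 was far above the other healthy libraries.

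Pnliprp2 followed its neighbour on the chromosome at a lower level. It was read at 70.8, 70.0, 52.3 and 30.9 RPKM in the tumor epithelial libraries and at 1.28, 0.0640, 0.0127 and 0.0255 RPKM in the healthy ones. Replicates 1 and 2 were alike and highest and replicate 4 was lowest for both lipase-related genes in tumor epithelium. The ratio of Pnliprp1 to Pnliprp2 in RPKM lay between 1.41 and 1.81 there.

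Bpifb5 varied least among the tumor epithelial libraries, with 45.4, 36.3, 54.4 and 45.1 RPKM, an SD of 16.3% of the mean. In healthy epithelial cells it was read at 2.47, 0.0204, 0.000334 and 0.0302 RPKM. The 224 counts of healthy replicate 1 made up nearly all of the 231 counts in that group.

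Ptn was read at 34.5, 36.5, 28.4 and 21.3 RPKM in tumor epithelial cells and at 0.223, 0.0222, 0.00804 and 0.0394 RPKM in healthy epithelial cells. As for the other 3 genes, no tumor library overlapped a healthy one and healthy replicate 1 was the highest of its group. The genes were chosen by this contrast, so the lack of overlap is a description. Its share over all genes was not counted. The plot of levels by library shows these gaps beside the other 8 groups.

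**Figure D1:**
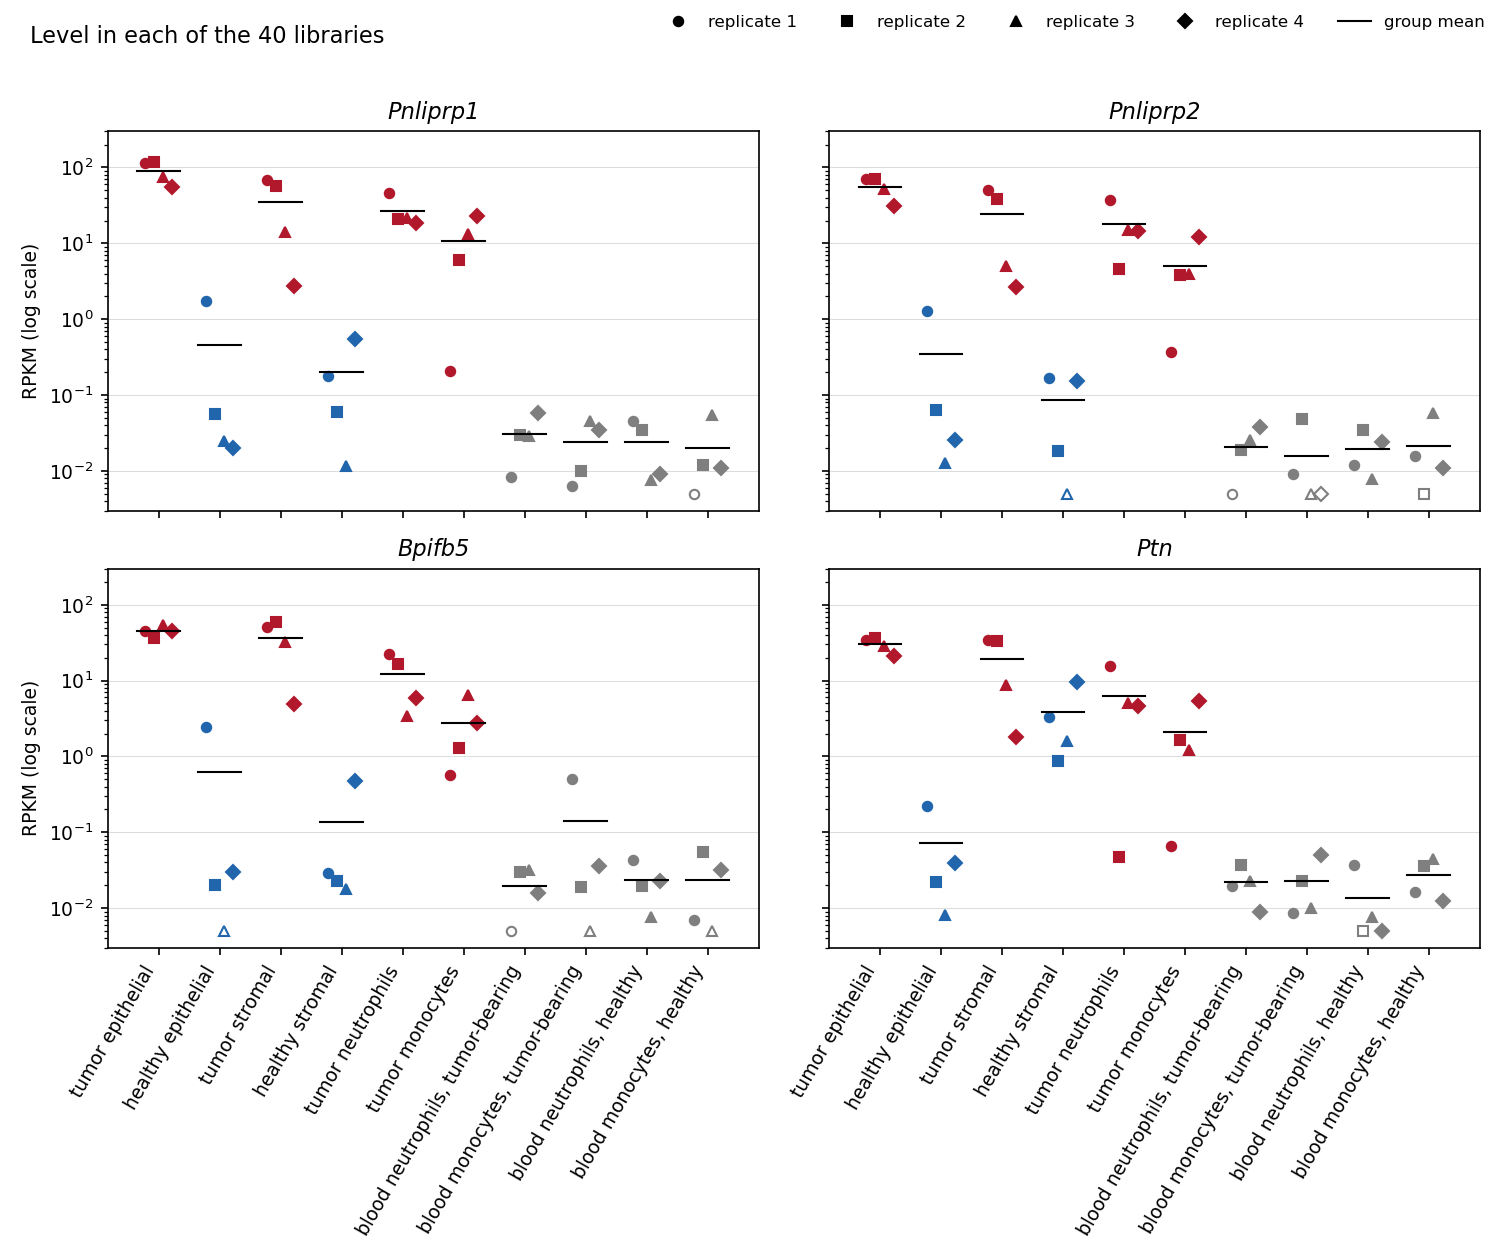
Level of each gene in RPKM (vertical axis, log scale) in each of the 40 libraries by group (horizontal axis, red for tumor, blue for healthy colon, grey for blood); symbols mark replicates 1 to 4, black bars mark group means, and open symbols are values under 0.005 RPKM drawn at 0.005. All 4 genes had their highest group mean in tumor epithelial cells, although the highest Bpifb5 library was tumor stromal replicate 2 (59.8 RPKM), and spread widely in tumor stromal cells and tumor monocytes, and stayed at or under 0.0579 RPKM in blood except for 1 Bpifb5 value of 0.505 RPKM.

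The edgeR fit over 16085 genes put the difference between tumor and healthy epithelial cells at 7.12 ± 1.29 on the log2 scale (SE) for Pnliprp1, 6.82 ± 1.18 for Pnliprp2, 5.57 ± 1.36 for Bpifb5 and 7.95 ± 0.92 for Ptn. These placed the genes at ranks 92, 115, 220 and 52 by the size of the excess. Without healthy epithelial replicate 1 the same differences were 10.74, 9.96, 10.32 and 9.22, so this library set the size of each of them. Because this contrast chose the genes, no p is given.

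Healthy epithelial replicate 1 held each of the 4 genes at a small share of their tumor epithelial mean: 1.93% for Pnliprp1, 2.28% for Pnliprp2, 5.45% for Bpifb5 and 0.737% for Ptn. It was also the highest healthy epithelial library for 4 of 18 Wnt target genes, namely the secreted Wnt inhibitors Notum (0.319 RPKM) and Wif1 (0.282 RPKM), the intracellular antagonist Nkd1 (0.367 RPKM) and the membrane-bound antagonist Apcdd1 (0.318 RPKM). The shares of these in the tumor epithelial mean were 3.14%, 1.87%, 2.11% and 3.04%. For the other 14 targets, among them Axin2 and Lgr5, another healthy library was higher. Among 4 alike libraries each would be the highest for about 1 gene in 4, and 4 of 18 is no more than that. Whether tumor-derived RNA was present in this library was not tested.

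In tumor stromal cells the 4 genes were higher in replicates 1 and 2 than in replicates 3 and 4, as were the epithelial markers. Pnliprp1 was read at 67.5, 57.3, 14.3 and 2.72 RPKM in replicates 1 to 4, Pnliprp2 at 50.3, 38.9, 5.02 and 2.66 RPKM. Bpifb5 was read at 50.8, 59.8, 31.8 and 4.98 RPKM. Ptn was read at 34.2, 33.4, 8.64 and 1.82 RPKM. Replicates 1 and 2, the libraries richest in epithelial markers, were the highest for each gene and replicate 4, the poorest, was the lowest.

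In healthy stromal cells Pnliprp1, Pnliprp2 and Bpifb5 were low, at 0.200 ± 0.244, 0.0849 ± 0.0874 and 0.137 ± 0.228 RPKM (SD, n = 4). Ptn differed from the other 3 genes in this group: it was read at 3.30, 0.873, 1.58 and 9.70 RPKM, and the tumor and healthy stromal ranges of Ptn overlapped. Healthy stromal replicate 4, the highest for Ptn, also had the highest fibroblast marker sum, 2112 RPKM. In bulk samples, fewer cells of a type and less RNA per cell cannot be told apart.

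The fitted excess in tumor over healthy stromal cells was 7.85 ± 1.46 on the log2 scale (SE) for Pnliprp1, 8.53 ± 1.49 for Pnliprp2, 8.44 ± 1.43 for Bpifb5 and 2.76 ± 1.04 for Ptn, at ranks 13, 7, 8 and 715 of 19081 genes. Without tumor stromal replicates 1 and 2 these values were 5.64 ± 1.13, 5.72 ± 1.02, 7.30 ± 1.32 and 0.70 ± 0.94. The fitted differences of the 3 genes were over 5 log2 units in these 6 libraries, while that of Ptn was smaller than its SE. The stromal excess was part of the choice, so these values add no support. The median of 17 epithelial markers, as a percentage of their tumor epithelial mean, was 20.1% and 12.1% in tumor stromal replicates 3 and 4. In healthy stromal replicates 1 to 4 it was 0.498%, 0.267%, 0.236% and 14.9%. The part of epithelial RNA in these differences was not tested.

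Tumor neutrophils, which the sort selects by CD45 and Ly6G, held all 4 genes at intermediate levels. Pnliprp1 was read at 45.7, 20.9, 21.6 and 18.7 RPKM in replicates 1 to 4 and at 0.00833 to 0.0574 RPKM in the 4 blood neutrophil libraries of tumor-bearing mice. Pnliprp2 was read at 37.0, 4.55, 15.2 and 14.6 RPKM against at most 0.0383 RPKM in blood. Bpifb5 was read at 22.5, 16.7, 3.42 and 5.84 RPKM against at most 0.0319 RPKM in blood. Every tumor library was above every blood library for each of these genes.

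Ptn stood out in the tumor neutrophils by 1 library. It was read at 15.6, 5.13 and 4.67 RPKM in replicates 1, 3 and 4 but at 0.0468 RPKM, or 10 counts, in replicate 2, where Pnliprp1 stood at 20.9 and Bpifb5 at 16.7 RPKM. Blood neutrophils of tumor-bearing mice had at most 8 counts of Ptn and 0.0367 RPKM, so replicate 2 was just above the blood range.

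Over the 13674 genes tested, 11.9% were called higher in tumor than in blood neutrophils of tumor-bearing mice (edgeR quasi-likelihood test, Benjamini-Hochberg adjusted p under 0.05 and a log2 difference over 1.5). Pnliprp1, Pnliprp2 and Bpifb5 were called, with log2 differences of 9.79 ± 0.64, 9.55 ± 0.85 and 9.30 ± 1.03 (SE) and adjusted p of 1.2e-04, 2.6e-04 and 5.6e-04. They passed the filter on low counts through the tumor libraries alone, so neither their number nor their adjusted p adds support. Ptn did not pass the filter because of replicate 2, and without a filter its log2 difference was 7.82 with an adjusted p of 0.00139. Without tumor neutrophil replicate 2 Ptn passed, at 8.30 ± 0.57 on the log2 scale (SE, edgeR). That fit leaves out the 1 tumor library near the blood level, so it adds no support and no p is given. In the exact permutation test of mean RPKM over 70 arrangements, two-sided, each gene reached p = 0.0286, the smallest that 4 against 4 libraries allow, and 13.6% of the genes tested had every tumor library above every blood library.

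Tumor monocytes, sorted by high Ly6C without Ly6G, had lower and more scattered levels. Pnliprp1 was read at 0.209, 6.10, 13.2 and 23.2 RPKM in replicates 1 to 4, against at most 0.0451 RPKM in blood monocytes of tumor-bearing mice. Pnliprp2 was read at 0.374, 3.88, 3.94 and 12.0 RPKM against at most 0.0484 RPKM in blood. Ptn was read at 0.0657, 1.65, 1.21 and 5.40 RPKM against at most 0.0508 RPKM in blood. Replicate 1, which held the least epithelial marker signal of the 12 tumor stromal, neutrophil and monocyte libraries, was the lowest for all 4 genes.

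Bpifb5 came closest to overlapping between tumor and blood monocytes. It was read at 0.567, 1.31, 6.52 and 2.74 RPKM in the tumor libraries and at 0.505, 0.0188, 0.000297 and 0.0359 RPKM in blood replicates 1 to 4 of the tumor-bearing mice. Blood replicate 1 held 60 counts of Bpifb5, while the next highest of the 16 blood libraries held 4. The other 3 genes were not high in that blood library, with 1 to 2 counts, or 0.00640 RPKM for Pnliprp1, 0.00917 RPKM for Pnliprp2 and 0.00855 RPKM for Ptn.

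In tumor against blood monocytes 7.76% of 15280 genes were called higher by edgeR, and all 4 genes were. The log2 differences were 9.02 ± 1.33 for Pnliprp1, 8.47 ± 1.25 for Pnliprp2, 6.65 ± 1.20 for Ptn and 4.64 ± 1.30 for Bpifb5 (SE), with adjusted p of 0.00131, 0.00128, 0.00381 and 0.0332. As in neutrophils, the genes entered the test through the tumor libraries, so neither their number nor their adjusted p adds support. Each had all 4 tumor libraries above every blood library, as had 10.6% of the genes tested, and an exact permutation p of 0.0286.

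The calls of Pnliprp1 and Ptn in monocytes depended on the tool and that of Bpifb5 on single libraries, while Pnliprp2 was called under all 17 alternatives in which it was tested. With limma-voom, the tool the study names, Pnliprp1 had a log2 difference of 7.93 with an adjusted p of 0.109 and Ptn one of 6.0 with an adjusted p of 0.0728, and 2 of the 4 genes were called. The edgeR call of Bpifb5 was lost without tumor monocyte replicate 3 (adjusted p = 0.0773) or 4 (0.0591) and without blood replicate 2 (0.0724), 3 (0.0565) or 4 (0.0845), and its adjusted p ran from 0.00605 to 0.0845 over all alternatives. Without blood replicate 1 the log2 difference of Bpifb5 was 7.50.

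The change from blood to tumor was compared between the cell types with an interaction term over 16 libraries, in which 3.95% of 17465 genes were called in either direction. None of the 4 genes was called. The difference, neutrophils minus monocytes, was 0.66 on the log2 scale for Pnliprp1 (2 SE either side gave -2.44 to 3.76), 0.98 for Pnliprp2 (-2.37 to 4.34) and 1.17 for Ptn (-2.11 to 4.44). For Bpifb5 it was 4.54 (1.26 to 7.81), with an unadjusted p of 0.0130 by edgeR and an adjusted p of 0.120, and DESeq2 gave an adjusted p of 0.0334. Without blood monocyte replicate 1 the Bpifb5 difference was 1.69 with an edgeR adjusted p of 0.639. The adjusted p of Bpifb5 ran from 0.0334 to 0.639 over the alternatives.

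Circulating cells held almost none of these transcripts in either kind of mouse. Over the 16 blood libraries Pnliprp1 summed to 40 counts with at most 6 in a library, Pnliprp2 to 33 with at most 6, and Ptn to 72 with at most 10. Bpifb5 summed to 92 counts, 60 of them in the library named above. With 10717873 to 19260891 counts per blood library, levels this low cannot be ranked between groups.

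No gene passed the filter in the comparison of blood neutrophils of tumor-bearing with healthy mice, where edgeR called 4.01% of 13360 genes in either direction, or in that of blood monocytes, where it called 0.209% of 15313. Without the filter none of the 4 was called in either cell type, and none had an unadjusted p under 0.05 by edgeR. The unadjusted p lay between 0.294 and 0.946 in neutrophils and between 0.0876 and 0.850 in monocytes, and the exact permutation p lay between 0.343 and 0.914 over both. A difference was not detectable at this depth.

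Set beside the epithelial cells, the mean level of Pnliprp1 was 39.0% of its tumor epithelial mean in tumor stromal cells, 29.4% in tumor neutrophils and 11.7% in tumor monocytes. For Pnliprp2 these shares were 43.2%, 31.8% and 9.0%. Bpifb5 kept 81.3%, 26.7% and 6.14%, and Ptn 64.7%, 21.0% and 6.90%. All 4 genes thus had the same order of the 4 tumor populations by mean, although the ranges of each pair of neighbours in that order overlapped.

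Epithelial markers were measured in all 3 of these populations, and in tumor stromal cells the libraries richest in them were the highest for the 4 genes. In tumor monocytes they were not: replicate 2 held the most, at 19.6%, and Pnliprp1 there stood at 6.71%, below replicates 3 (14.5%) and 4 (25.5%). In each library the median of the 17 epithelial markers was taken as a percentage of their tumor epithelial mean, and the gene was set beside it. In tumor stromal replicate 1 the markers stood at 94.0%, Pnliprp1 at 74.3%, Pnliprp2 at 89.8%, Bpifb5 at 112% and Ptn at 113%. In tumor neutrophil replicate 1 they stood at 80.8% and the 4 genes between 49.7% and 66.1%. In these 2 libraries the ratio of gene share to marker share lay between 0.615 and 1.21. In tumor stromal replicate 2, also rich in epithelial markers, these stood at 47.6% while Pnliprp1 stood at 63.1%, Pnliprp2 at 69.4%, Bpifb5 at 132% and Ptn at 111%, the last 2 above all 17 markers.

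Elsewhere gene and marker shares came apart in both directions. In tumor neutrophil replicate 4 the markers stood at 4.79% of the tumor epithelial level while Pnliprp1 stood at 20.5%, Pnliprp2 at 26.1%, Bpifb5 at 12.9% and Ptn at 15.5%, each above all 17 markers. In tumor monocyte replicate 4 the markers stood at 3.33% and Pnliprp1 at 25.5%, or 7.67 times as high. Tumor stromal replicate 4 showed the opposite, with markers at 12.1% and Pnliprp1 at 2.99%, below all 17 markers. Tumor stromal replicate 3 held Bpifb5 at 70.2% and Pnliprp2 at 8.96% beside markers at 20.1%. Tumor neutrophil replicate 2 held Bpifb5 at 36.8% and Ptn at 0.155% beside markers at 13.8%.

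Over the 12 libraries of the 3 populations, the gene's share was above the marker median in 6 for Pnliprp1, 5 for Pnliprp2, 8 for Bpifb5 and 6 for Ptn. The ratio of gene to marker share ran from 0.247 to 7.67 for Pnliprp1, 0.353 to 6.43 for Pnliprp2, 0.148 to 4.95 for Bpifb5 and 0.0112 to 5.38 for Ptn. The part that RNA from epithelial cells had in these levels was not tested.

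**Figure D2:**
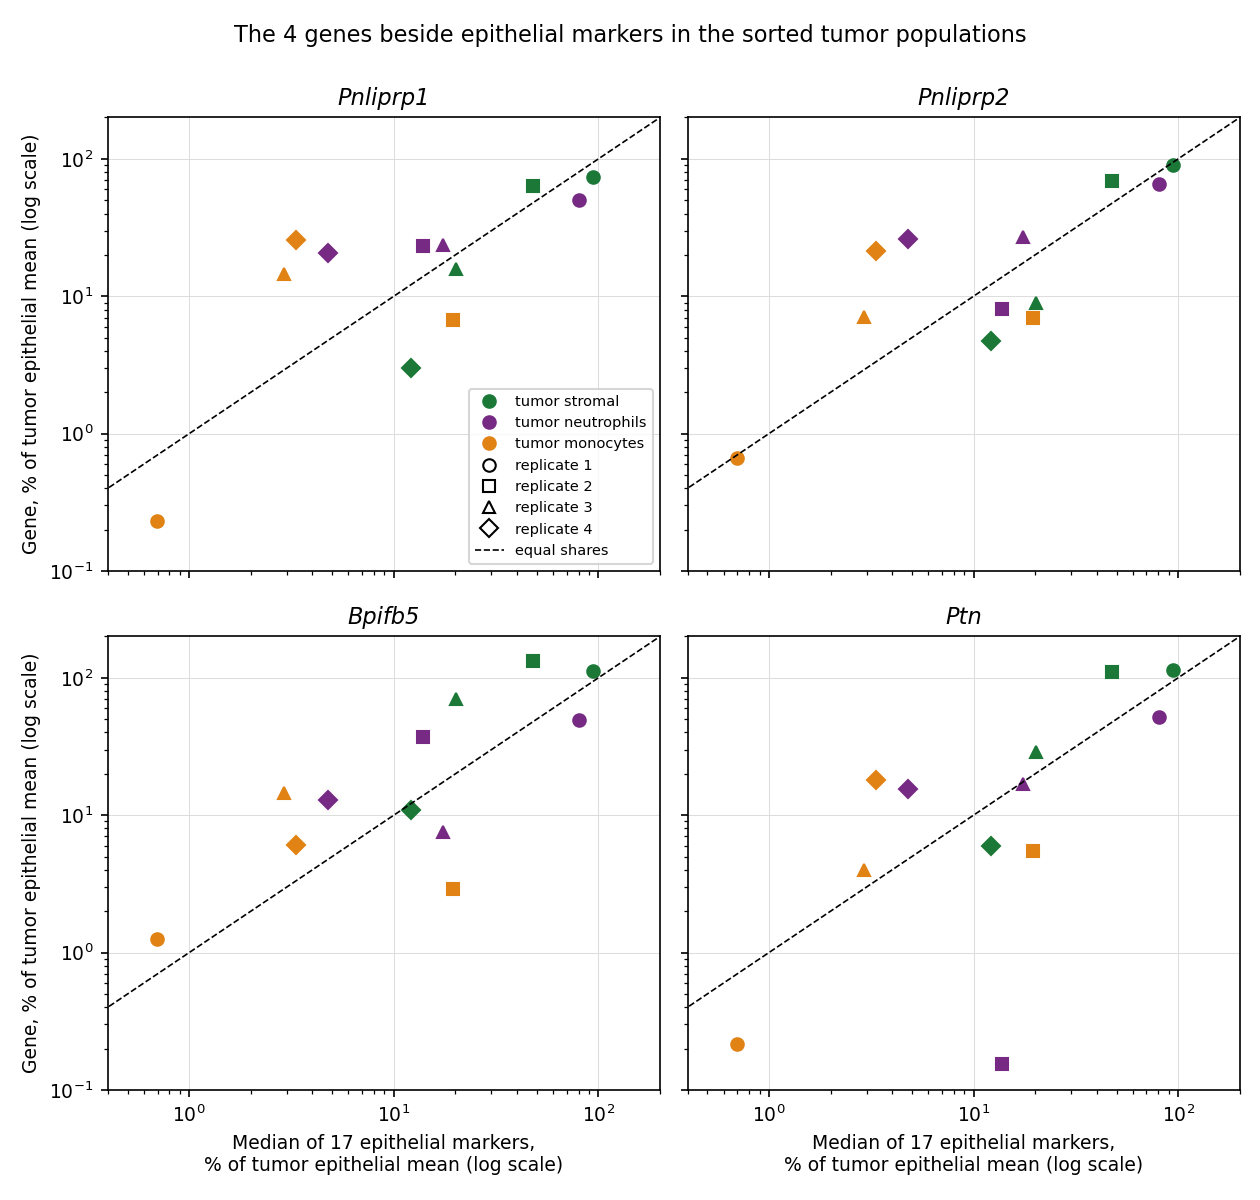
Share of the tumor epithelial mean held by each gene (vertical axis, percent, log scale) against the median share of 17 epithelial markers (horizontal axis, percent, log scale) in 4 tumor stromal, 4 tumor neutrophil and 4 tumor monocyte libraries; the dashed line marks equal shares. Tumor stromal replicate 2, tumor neutrophil replicate 4 and tumor monocyte replicates 3 and 4 lie above the line for all 4 genes. Tumor stromal replicate 4, tumor neutrophil replicate 1 and tumor monocyte replicate 2 lie below it for all 4. Ptn in tumor neutrophil replicate 2 lies far below it at 0.155%.

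The genes next to the 4 on their chromosomes were mostly near 0 in the same cells. Of 18 neighbouring protein-coding genes, 3 on either side of each, 7 passed the filter in tumor against healthy epithelial cells and 3 were called higher, where edgeR called 7.52% of 16085 genes higher and 7.88% lower. Pnlip, the pancreatic triglyceride lipase 47099 bases before Pnliprp1, had at most 1 count in any tumor epithelial library. Ccdc172, farther out on that side, had a mean of 0.000439 RPKM, and 1700019N19Rik, 8269 bases past Pnliprp2, a mean of 0.0161 RPKM. The high levels of the pair thus did not extend to the genes directly beside them.

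The 3 neighbours called higher were Bpifb1, Creb3l2 and Gfra1. Of these, Bpifb1 and Gfra1 entered the test through the tumor libraries, so the direction of their calls adds no support. Bpifb1, a BPI fold family member 3373 bases before Bpifb5, was read at 0.710, 0.947, 2.05 and 2.27 RPKM in tumor epithelial replicates 1 to 4 and at 0.0662, 0.00251, 0.00193 and 0.00261 RPKM in healthy ones, and rose by 5.70 ± 0.95 on the log2 scale (SE, edgeR adjusted p = 0.00173). On the per-length scale its mean of 1.5 RPKM lay far under the 45.3 RPKM of Bpifb5. Gfra1, a co-receptor for glial cell line-derived neurotrophic factor 272978 bases before Pnliprp1, rose by 6.25 ± 0.88 (edgeR adjusted p = 6.3e-04) to a mean of 0.378 RPKM. Creb3l2, a transcription factor of the endoplasmic reticulum 517035 bases past Ptn, rose by 2.55 ± 0.43 (edgeR adjusted p = 0.00192) to 4.52 RPKM. Mtpn (-0.08 ± 0.34), Dgki (0.87 ± 1.23), Cdk5rap1 (0.84 ± 0.58) and Hspa12a (-2.50 ± 1.20) were not called.

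**Figure D3:**
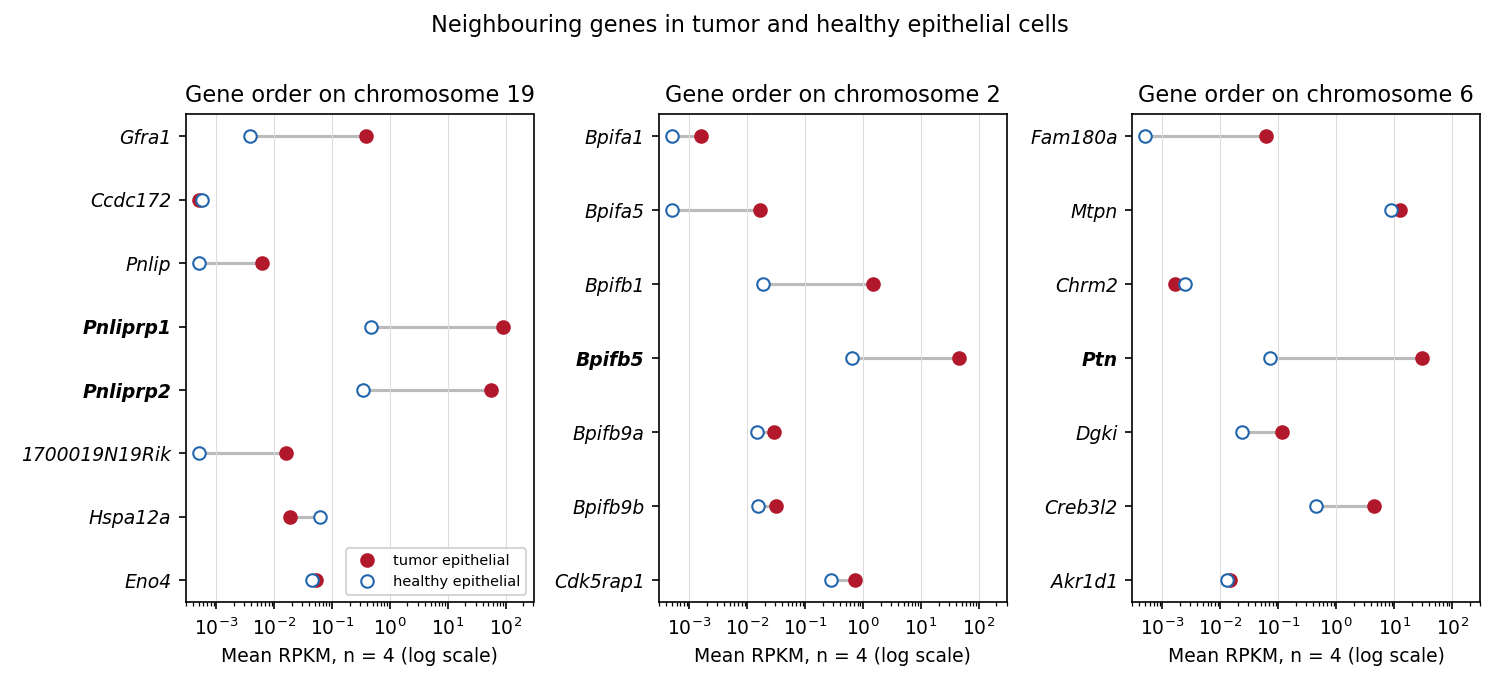
Mean RPKM (horizontal axis, log scale, n = 4) of the 4 genes in bold and of 3 protein-coding genes on either side, in chromosome order from top to bottom, in tumor (filled red) and healthy (open blue) epithelial cells; means under 0.0005 RPKM are drawn at 0.0005. Pnliprp1 (90.9 RPKM) and Pnliprp2 (56.0 RPKM), Bpifb5 (45.3 RPKM) and Ptn (30.2 RPKM) stand above their neighbours, of which Mtpn (12.6 RPKM) was the highest and stood at 8.95 RPKM in healthy cells.

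The wider lipase family did not follow Pnliprp1 and Pnliprp2. Of 11 other lipases and cofactors, 6 passed the filter in tumor against healthy epithelial cells, with 2 called higher and 3 lower, and the median difference was -0.84 on the log2 scale beside -0.01 over all genes. Lipf, the gastric lipase, rose by 7.66 ± 0.92 (SE, edgeR adjusted p = 2.7e-04) and was read at 3.12, 6.84, 4.52 and 3.64 RPKM in the tumor libraries, against 0.0641 RPKM in healthy replicate 1 and no rounded counts in the other 3. The size of this difference therefore rests on the few counts of healthy replicate 1. Lipc, the hepatic lipase, rose by 4.35 ± 0.89 (edgeR adjusted p = 0.00539) but stayed at a mean of 0.147 RPKM. Lipoprotein lipase Lpl fell by 4.65 on the log2 scale, from 0.566 ± 0.34 to 0.0308 ± 0.0224 RPKM (edgeR adjusted p = 0.00116). Liph fell by 2.33 (edgeR adjusted p = 0.00563). Lipg, the endothelial lipase, fell by 1.97 (edgeR adjusted p = 0.0269), a call lost without tumor epithelial replicate 1 (adjusted p = 0.0833) or 4 (0.0567) or healthy replicate 4 (0.0509).

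No pancreatic acinar gene was called higher along with the lipase-related pair. Of 24 genes for digestive enzymes, granule proteins and acinar transcription factors, 13 had at most 3 counts in every tumor epithelial library, 6 passed the filter and 2 were called lower, with a median of -0.46 on the log2 scale. Cpa1, a carboxypeptidase, and Prss2, a trypsinogen, had at most 1 count in any tumor epithelial library, and Ptf1a, the acinar lineage factor, at most 2. Sycn, a zymogen granule protein, fell by 4.33 on the log2 scale (edgeR adjusted p = 0.00503), from 7.01 ± 5.74 to 0.473 ± 0.411 RPKM. Ctrl, a chymotrypsin-like protease, fell by 3.09 (edgeR adjusted p = 0.0367), a call lost in 6 of the 8 fits without 1 library, with adjusted p of up to 0.106; it held without tumor epithelial replicate 2 or healthy replicate 1. The acinar genes with a tumor epithelial mean over 1 RPKM were Rnase1, a secreted ribonuclease, at 5.64 RPKM (2.53 ± 0.86 on the log2 scale, SE, edgeR adjusted p = 0.0579) and the elastase Cela1 at 3.31 RPKM (-0.52 ± 0.38).

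Few other BPI fold family genes were measurable in epithelial cells. Of 16 other members, 2 passed the filter in epithelial cells and both were called higher: Bpifb1, as above, and Lbp, the lipopolysaccharide-binding protein, at 2.94 ± 0.94 on the log2 scale (SE, edgeR adjusted p = 0.0461). Both passed through the tumor libraries, with at most 13 counts of Bpifb1 and 42 of Lbp in a healthy library. That both were called higher therefore adds no support. The Lbp call was lost in 7 of the 8 fits without 1 library, with adjusted p of up to 0.106, and held only without healthy replicate 1. Of the 16, 8 had at most 3 counts in every tumor epithelial library.

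Most partners of pleiotrophin were not called in epithelial cells. Of 20 receptors, co-receptors and relatives of Ptn, 15 passed the filter, with 2 called higher, 2 lower, 11 not called and a median of 0.03 on the log2 scale, beside 7.52% and 7.88% called higher and lower over all genes. Ptprz1, the receptor phosphatase, was read at 0.336, 0.294, 1.11 and 0.675 RPKM in tumor and at 0.0627, 0.00448, 0.00750 and 0.0239 RPKM in healthy epithelial cells, and rose by 3.39 ± 0.89 (SE, edgeR adjusted p = 0.0196). That call was lost without tumor epithelial replicate 3 (adjusted p = 0.0545) or 4 (0.0508). Itgav, the integrin alpha-V chain, rose by 1.56 ± 0.21 (edgeR adjusted p = 5.5e-04), which fell under the threshold of 1.5 without tumor epithelial replicate 4 (1.45) or healthy replicate 3 (1.43).

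Syndecan 2 (Sdc2) fell by 4.07 on the log2 scale in tumor epithelial cells (edgeR adjusted p = 0.00301), and Lrp1, a large endocytic receptor, fell by 2.79 (edgeR adjusted p = 1.2e-04). Mdk, the relative of Ptn, had at most 5 counts in a tumor epithelial library. Alk had at most 2. The partner with the highest tumor epithelial mean was syndecan 4 (Sdc4) at 23.2 ± 13.9 RPKM (SD, n = 4), which was not called.

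Wnt target genes, fixed as a list because the deleted gene restrains that pathway, contained 18 genes that all passed the filter in epithelial cells; 10 were called higher and none lower, with a median of 2.12 on the log2 scale. The largest differences were those of Wif1 (6.76 ± 0.72), Apcdd1 (6.37 ± 1.01) and Nkd1 (6.32 ± 0.93), with edgeR adjusted p of 1.3e-04, 0.00124 and 8.1e-04. These 3 reached means of 15.1, 10.4 and 17.3 RPKM in tumor epithelial cells, below each of the 4 genes on the same per-length scale.

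In stromal cells edgeR called 3.39% of 19081 genes higher in tumor and 5.01% lower, with a median of 0.03 on the log2 scale over all genes. Lipf was called higher, at 2.46, 0.796, 1.49 and 0.867 RPKM in tumor stromal replicates 1 to 4 against no rounded counts in any healthy library (edgeR adjusted p = 0.00506), and Lpl fell by 4.43 (edgeR adjusted p = 0.00673), these 2 being the calls among 7 lipase genes that passed. Bpifb1 rose by 7.62 ± 1.11 (SE, edgeR adjusted p = 0.00673), with 1.62 and 1.57 RPKM in replicates 1 and 2 and 0.488 and 0.0974 RPKM in replicates 3 and 4, the same split as for the 4 genes. Pltp, the phospholipid transfer protein, fell by 3.59 (edgeR adjusted p = 0.0229), the other call among 3 BPI fold genes that passed, and this was lost without tumor stromal replicate 2 (adjusted p = 0.0597) or healthy replicate 2 (0.0565).

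Of the 7 pancreatic acinar genes that passed in stromal cells, Cela1 (5.27 ± 1.20) and Rnase1 (5.19 ± 0.97) were called higher (SE, edgeR adjusted p = 0.0289 and 0.0149), and Rbpjl, an acinar transcription factor, lower (-2.84 ± 0.67, edgeR adjusted p = 0.0330). Without tumor stromal replicates 1 and 2 the adjusted p of Cela1 was 0.130 and that of Rnase1 0.0572. Leaving out 1 library ended the call of Cela1 for tumor stromal replicates 1 and 2 and healthy replicates 2, 3 and 4 (adjusted p up to 0.0811), that of Rnase1 for healthy replicate 1 (0.0515), and that of Rbpjl for tumor replicates 2, 3 and 4 and healthy replicates 1, 2 and 3 (up to 0.0876).

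Of 16 pleiotrophin partners that passed in stromal cells, none was called higher and 3 lower. Sdc2 fell by 4.30 on the log2 scale (edgeR adjusted p = 0.00483) from a healthy stromal mean of 17.9 RPKM. Lrp1 fell by 4.24 (edgeR adjusted p = 0.00486) from 21.9 RPKM. Mdk fell by 2.77 (edgeR adjusted p = 0.0449), a call that was lost in 7 of the 8 fits without 1 library (adjusted p up to 0.106) and held only without tumor stromal replicate 3. Of the 18 Wnt targets, 10 were called higher in tumor stromal cells and none lower, led by Wif1 (7.18 ± 1.15), Notum (6.31 ± 1.14) and Ascl2 (6.12 ± 1.24), with edgeR adjusted p of 0.00864, 0.0134 and 0.0193. That number was 5 without healthy stromal replicate 1, 4 without healthy stromal replicate 2 and 7 without tumor stromal replicates 1 and 2. The call of Ascl2, a crypt stem cell factor, was lost without healthy stromal replicate 1 (adjusted p = 0.0652), 2 (0.0550) or 3 (0.0582). The epithelial and fibroblast markers of these libraries, given above, moved with these differences, and their part was not tested.

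**Figure D4:**
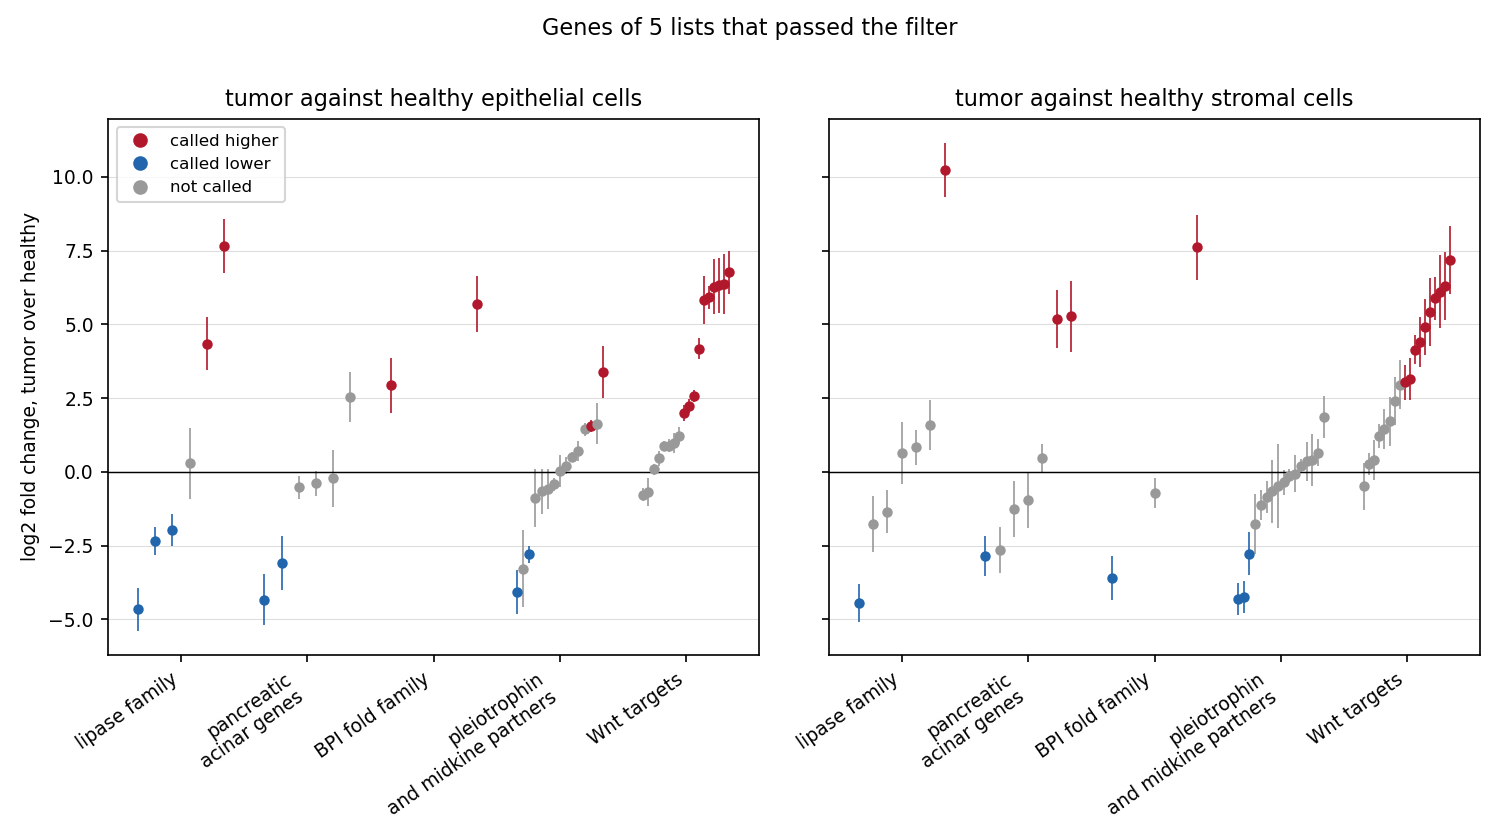
Log2 fold change of tumor over healthy (vertical axis) for the genes of 5 lists (horizontal axis, genes in ascending order) that passed the filter, in epithelial cells (left) and stromal cells (right); points are edgeR estimates, bars 1 SE, red genes called higher, blue genes called lower and grey genes not called. Of the 18 Wnt targets 10 were called higher in each panel, while the other 4 lists held between 0 and 2 genes called higher; the highest lipase point at right is Lipf, which has no counts in healthy stromal cells, so its size depends on the fit.

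The genes whose levels followed each of the 4 most closely over the 40 libraries were found among 13958 genes by Pearson's r of log2(RPKM + 1). These libraries share populations, tumor or healthy state and epithelial content, so r is given as a description. For Pnliprp1 the closest was its neighbour Pnliprp2 (r = 0.988), followed by Hamp (0.969), Hamp2 (0.966), Bpifb5 (0.955) and Wif1 (0.945). For Pnliprp2, after Pnliprp1, they were Dsc3, a desmosomal cadherin (0.955), Hamp (0.955), the secreted phospholipase Pla2g2a (0.954) and Hamp2 (0.952). Hamp encodes hepcidin, the hormone of iron balance. Hamp2 is a related gene, and whether reads could be assigned between it and Hamp was not checked.

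Bpifb5 was followed most closely by Hamp (r = 0.981), Hamp2 (0.979), Wif1 (0.973), Cadps, a factor of dense-core vesicle release (0.97), and Pla2g2a (0.969). Ptn had a set of its own: Spock2, an extracellular matrix proteoglycan (0.968), Apcdd1 (0.965), Nkd1 (0.962), Pycr1, an enzyme of proline synthesis (0.949), and the adhesion receptor Adgrg2 (0.947). By likeness to Ptn, Pnliprp1 ranked 98, Pnliprp2 ranked 52 and Bpifb5 ranked 127. Several of these genes were themselves abundant in tumor epithelial cells, with means of 48.0 RPKM for Pla2g2a, 30.9 RPKM for Spock2, 25.1 RPKM for Hamp and 21.2 RPKM for Dsc3. Spock2 shared with Ptn a measurable level in healthy stromal cells, 2.09 RPKM, where Pla2g2a stood at 0.192 RPKM and Hamp at 0.158 RPKM.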

How the data were processed

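The series holds 40 RNA libraries from sorted mouse cells, 4 in each of 10 groups, mapped to groups by the group label. RNA from sorted cells was amplified to double-stranded cDNA before library preparation and sequenced on a HiSeq 2500. The authors mapped reads to mm10 (Bowtie2 per the labels) and deposited estimated counts per gene, which are not whole numbers, and RPKM per gene. The cDNA was amplified, so counts are not independent molecules, and p-values measure the spread between libraries only. Counts were rounded and compared with edgeR 4.0.16 in R 4.3.3 (TMM, filterByExpr, robust quasi-likelihood), 8 libraries at a time and 16 for the interaction. The SE given with an edgeR difference was worked back from that difference and its test statistic. It is approximate, above all where a group has almost no counts. A gene of that kind enters a test through the other group alone, so the direction of its call adds no support. Genes were called at a Benjamini-Hochberg adjusted p under 0.05 over all genes tested and an absolute log2 fold change over 1.5, the thresholds of the study, which used limma-voom. Fits were tested on simulated data. The other settings tried were RLE scaling, DESeq2 1.42.0, limma-voom from limma 3.58.1, other filters, no fold threshold, all 40 libraries, no mitochondrial genes, a replicate block, limma on log2(RPKM + 1) or log2(RPKM + 0.1), and leaving out each library. Leaving out both epithelial-rich tumor stromal libraries was added after seeing the data.

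The 4 genes and the lists were chosen with earlier results of these data known. Named list genes are the up to 3 called genes per direction, list and colon comparison with the largest differences, and for each of the 4 genes 3 neighbours a side and the 5 genes with the highest r. A pair of tumor stromal libraries are both labelled replicate 3, and 1 is called replicate 4 here. Titles of 4 blood libraries name 2 animals each; nothing else says how many animals a library pools, so the spread may be partly technical. Gene coordinates are from GENCODE M21 and promoters from RefSeq, both GRCm38. No 2 libraries of a group agreed within sampling noise.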

Additional observations from a re-analysis of the deposited data

Results flagged for a closer look

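The 4 genes and 10 groups form 40 sets of 4 libraries. Of these sets, 8 had 1 library farther from the others than Dixon's test allows at the 95% level. For normally spread values, chance alone gives about 1 in 20 such sets. Healthy epithelial replicate 1 accounts for 4 of them, being the highest of its group for Pnliprp1 (1.75 RPKM, next 0.0565), Pnliprp2 (1.28 RPKM, next 0.0640), Bpifb5 (2.47 RPKM, next 0.0302) and Ptn (0.223 RPKM, next 0.0394). The 4 sets share that library and are not independent. Values near 0 RPKM need not be spread normally, so the rate of 1 in 20 is only a rough guide.

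Pnliprp1 in tumor neutrophil replicate 1, the tumor neutrophil library richest in epithelial markers, stood at 45.7 RPKM beside 21.6 RPKM in the next. Bpifb5 in healthy stromal replicate 4 stood at 0.479 RPKM beside 0.0288 RPKM, and this library held the most epithelial marker signal of the healthy stromal cells. Bpifb5 in blood monocytes of tumor-bearing mice, replicate 1, stood at 0.505 RPKM beside 0.0359 RPKM. Ptn in blood neutrophils of healthy mice, replicate 1, stood at 0.0370 RPKM beside 0.00765 RPKM, with at most 7 counts in that group.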

How the results depend on the processing

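Of the 4 genes, 3 were called in tumor against blood neutrophils (3 to 4 with 1 library left out). In monocytes 4 were called (3 to 4). Over all genes tested, 11.9% and 7.76% were called higher in these 2 comparisons. The genes called passed the filter on low counts through the tumor libraries, so neither their number nor their adjusted p adds support. A minimum of 10 counts in every library left 0 in both, because the blood libraries fall under it by construction, and limma-voom left 2 in monocytes. In the interaction 0 were called, and DESeq2 called 1 (Bpifb5). The small interaction value of Pnliprp2 ran from -0.75 to 1.81 with 1 library left out, changing sign without blood monocyte replicate 2, and was not called either way. The median over all genes was 0.11 on the log2 scale in tumor against blood neutrophils, -0.15 with limma-voom and 0.07 with RLE, small beside the differences of the 4 genes.

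The main fits did not pair libraries by replicate number. The correlation of same-numbered deviations was over 0.1 for every pair in none of the 6 comparisons. It came closest in blood monocytes of tumor-bearing against healthy mice, where 3 pairs were over 0.1, the highest at 0.317. There 3 libraries were most like their own number. Titles share only 1 animal number in each comparison of tumor with blood, too few for a fit by animal. With the replicate block 3 of the 4 genes were called in neutrophils and 3 in monocytes, where Bpifb5 had an adjusted p of 0.0547; in stromal cells Rnase1 (0.0617) and Mdk (0.0656) lost their calls, and Wnt targets numbered 11.

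Among list genes called in epithelial cells, the lipase count of 5 became 2 with at least 10 counts in every library, 3 with all 40 libraries in 1 model, and 1 or 2 with limma on log2(RPKM + 1) or log2(RPKM + 0.1). The 2 acinar genes became 1 with no filter or all 40 libraries, 0 with the strict filter and 1 to 4 with 1 library left out; the 4 came without healthy epithelial replicate 1. The 2 BPI fold genes became 1 with no filter, 0 with the strict filter or log2(RPKM + 1), and 1 to 2 with 1 library left out. The 4 partners became 2 with the strict filter, 0 with log2(RPKM + 1) and 2 to 5 with 1 library left out, the 2 without tumor epithelial replicate 4. The 10 Wnt targets became 4 with the strict filter.

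In stromal cells the 2 lipases became 1 with the strict filter or log2(RPKM + 1). The 3 acinar genes became 0 with limma-voom or the strict filter, 1 with log2(RPKM + 1) or without both epithelial-rich tumor libraries, and 1 to 3 with 1 library left out. The 2 BPI fold genes became 1 with the strict filter or log2(RPKM + 1), and 1 to 2 with 1 library left out. The 10 Wnt targets became 6 with limma-voom, the strict filter or log2(RPKM + 1), and 4 to 12 with 1 library left out: 5 without healthy stromal replicate 1 and 4 without replicate 2. Except where the strict filter tests fewer genes, the cause was not tested.

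The level of Pnliprp1 in healthy relative to tumor epithelial cells, -7.62 as a log2 ratio of means, was -11.39 without healthy epithelial replicate 1 and -7.22 at most with another healthy library left out, and that of Pnliprp2 moved from -7.34 to -10.68 without replicate 1 (-6.94 at most). The level of Bpifb5 in healthy stromal relative to tumor epithelial cells moved from -8.37 to -10.93 without healthy stromal replicate 4 (-8.00 at most). By Spearman's rho 1, 2, 1 and 2 of the 5 genes named as most like Pnliprp1, Pnliprp2, Bpifb5 and Ptn stayed among the closest 5, and with a pseudocount of 0.1 the numbers were 5, 3, 4 and 3.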
